A study of Homo sapiens with 8 samples.

Results

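The genes described here were 40 members of NF-kB signalling and its inflammatory output, taken from the 60554 gene rows of each count file by their symbols. They comprised 5 NF-kB subunits, 6 inhibitors and feedback regulators, 4 adaptors and ubiquitin ligases, 10 chemokines, 7 interleukin, TNF and interleukin receptor genes, 3 colony stimulating factors and 5 adhesion molecules and enzymes. They were measured by bulk RNA-seq in the docetaxel sensitive and docetaxel resistant variants of DU145 and PC3, androgen-independent human prostate cancer lines that were established from metastases. Docetaxel is a taxane that stabilises microtubules. The 4 groups had 2 libraries each. DU145 sensitive and PC3 sensitive cells were kept in RPMI medium with 10% serum and 0.1% DMSO. DU145 resistant and PC3 resistant cells were kept in RPMI medium with 10% serum and 10 nM docetaxel, and no DMSO level was stated for them. The resistant variants were derived strains, 1 per line, so that a difference between variants cannot be told apart from a difference between these particular strains. The study describes a docetaxel-free period for its single cell samples, and no source used here states whether these bulk libraries had one, or whether replicate libraries were grown as separate cultures. The p-values therefore cover the spread between these libraries alone, which may be technical.

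NF-kB is a family of transcription factors that work as pairs of subunits. In resting cells most pairs are held in the cytoplasm by inhibitor of kappa B proteins. In the canonical arm, cytokine and Toll-like receptors act through TRAF and cIAP proteins and the IKK kinases to destroy those inhibitors, which frees RELA with the NFKB1 product p50. In the noncanonical arm, the kinase NIK accumulates and leads to processing of the NFKB2 product p100 to p52, which pairs with RELB. Many targets of the pathway are its own inhibitors, and others are chemokines and cytokines that recruit leukocytes. Both DU145 and PC3 are known for NF-kB activity without added stimulus.

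The binding motif of the family was looked for in the promoter windows of the members. RefSeq windows (GRCh38.p14, 250 bases before to 50 bases after a start) were given for 32 of the 40 members. On either strand, 17 of the 32 members (53.1%) held the 10-base kappa B consensus, against 7.09% of 27305 genes with a window. The shorter form GGANTTTCC, which overlaps many matches to the consensus, was in 16 of 32 members (50%) and in 2.01% of all genes. The AP-1 motif TGANTCA was in 4 of 32 members (12.5%) and in 9.37% of all genes. A match is a description of the letters and not a measurement of binding. The members were chosen as genes of the pathway and its output, so their share of kappa B matches is not independent of that choice. Windows of 5 chemokines that attract neutrophils are shown because their genes differed in their results (below) and the windows share the short form. Capitals mark bases in a match to the consensus or the short form, and each window was cut from the part that holds the match.

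CXCL1, chr4:73869243-73869342, plus strand: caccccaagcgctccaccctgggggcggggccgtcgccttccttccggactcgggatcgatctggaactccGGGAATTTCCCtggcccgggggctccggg
CXCL2, chr4:74099246-74099345, minus strand: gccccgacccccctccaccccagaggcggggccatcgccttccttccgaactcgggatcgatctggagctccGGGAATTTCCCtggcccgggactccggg
CXCL3, chr4:74038749-74038778, minus strand: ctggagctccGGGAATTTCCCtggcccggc
CXCL5, chr4:73998728-73998827, minus strand: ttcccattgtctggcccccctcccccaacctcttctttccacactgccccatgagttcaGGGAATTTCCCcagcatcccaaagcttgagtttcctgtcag
CXCL8, chr4:73740419-73740518, plus strand: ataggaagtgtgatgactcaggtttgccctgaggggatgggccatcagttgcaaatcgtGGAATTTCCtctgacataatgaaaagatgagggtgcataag

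The match to the short form began 78 bases upstream of the start in CXCL1, 77 in CXCL2, 78 in CXCL3, 90 in CXCL5 and 91 in CXCL8. All 5 genes lie on chromosome 4. Stretches around the match in a subunit, 2 feedback inhibitors and an adhesion molecule are shown because these regulators are themselves counted among the targets of the pathway.

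NFKB1, chr4:102501291-102501339, plus strand: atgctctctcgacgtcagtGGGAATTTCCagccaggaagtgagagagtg
NFKBIA, chr14:35404802-35404850, minus strand: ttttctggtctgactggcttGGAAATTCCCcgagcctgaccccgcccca
TNFAIP3, chr6:137867172-137867220, plus strand: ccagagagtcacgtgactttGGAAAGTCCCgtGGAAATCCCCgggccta
ICAM1, chr19:10270914-10270962, plus strand: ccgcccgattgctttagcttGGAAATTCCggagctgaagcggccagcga

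**Figure D1:**
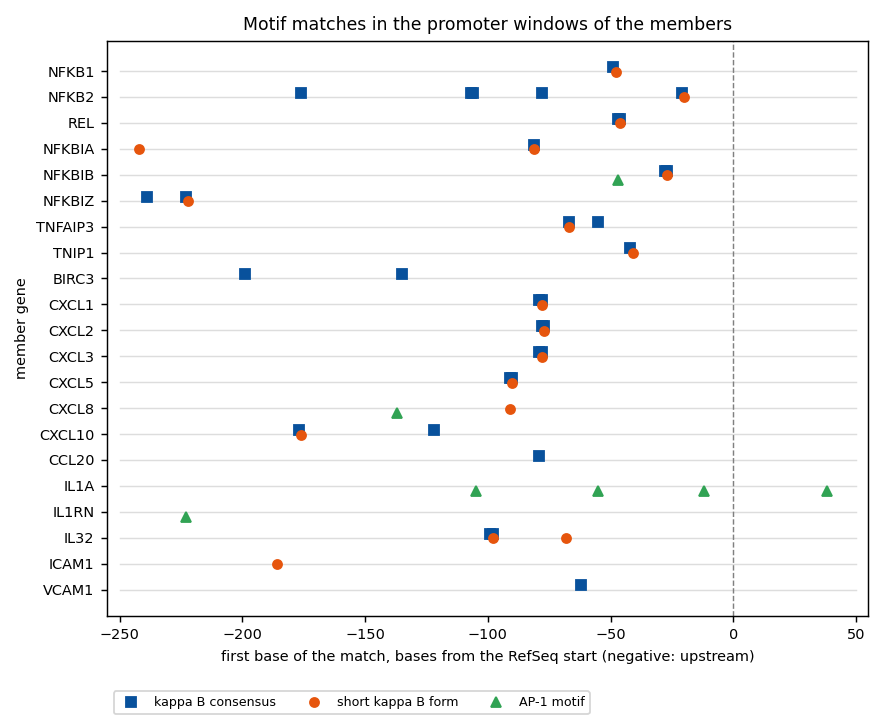
First base of each motif match (x axis, bases from the RefSeq start, negative upstream) in the promoter windows of the members that held at least 1 match (y axis), for the kappa B consensus, the short form GGANTTTCC and the AP-1 motif TGANTCA on either strand. Genes with several starts have the matches of all their windows in 1 line. The short form lies 77 to 91 bases upstream in CXCL1, CXCL2, CXCL3, CXCL5 and CXCL8. IL1A holds AP-1 matches and no kappa B match. Its windows overlap, so the IL1A matches at -12 and 38 are the same bases as those at -105 and -55.

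Total counts per library were 31685148 to 43045127. The members together made up 2572 to 2677 CPM (counts scaled to a common library total) in the DU145 libraries and 1007 to 1315 CPM in the PC3 libraries. Of the 5 epithelial markers the summed level was 4179 and 2558 CPM in DU145 sensitive, 396 and 250 CPM in DU145 resistant and 758 to 1000 CPM in the PC3 libraries. Most of the DU145 sensitive sum was KRT8 and KRT18, whose means went from 1711 to 29.0 CPM and from 1527 to 240 CPM in DU145 resistant cells. In DU145 the mean went from 87.0 to 35.6 CPM for KRT19, from 22.7 to 0.420 CPM for CDH1 and from 20.9 to 18.0 CPM for EPCAM. The 6 leukocyte markers summed to 0.920 to 2.34 CPM in the DU145 libraries and the PC3 sensitive libraries, and to 2.81 and 8.92 CPM in PC3 resistant replicates 1 and 2. In PC3 resistant replicate 2, 228 counts of that sum were from LYZ. CD3E was at 0 counts in every library, and PTPRC had 0 to 17 counts. The endothelial markers summed to 0.346 to 1.36 CPM in DU145, 6.43 and 6.88 CPM in PC3 sensitive and 13.4 and 25.4 CPM in PC3 resistant libraries, nearly all of it PECAM1 in PC3, while CDH5 had at most 0.0778 CPM in PC3.

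**Figure D2:**
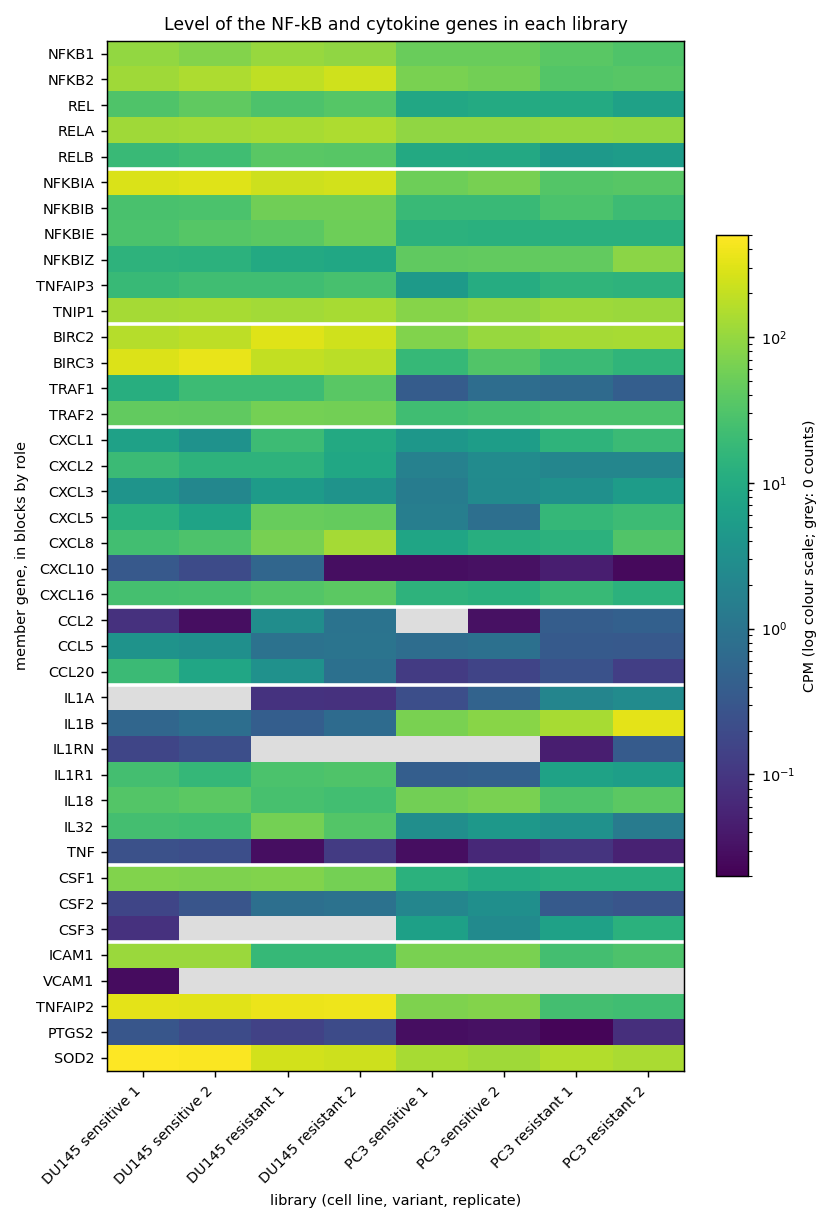
Level of the 40 members (y axis, in blocks by role) in each of the 8 libraries (x axis) as CPM on a log colour scale, grey where a library had 0 counts. Most subunits, regulators and chemokines were brighter in the DU145 columns, while IL1B, IL1A, NFKBIZ and CSF3 were brighter in the PC3 columns.

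Resistant and sensitive cells were compared within each line with edgeR's quasi-likelihood test, with Benjamini-Hochberg adjustment over 20238 genes and a threshold of 0.05. Of the 40 members 36 had counts high enough to be tested. In DU145, 12 members rose, 6 fell and 18 did not pass, while 12.4% of all genes tested rose and 15.4% fell. In PC3, 8 members rose, 9 fell and 19 did not pass, while 18.6% of all genes rose and 17.0% fell. The median log2 fold change (resistant minus sensitive) of the members was 0.26 in DU145 and 0.14 in PC3, against 0.00 and 0.01 over all genes tested. The number of members that fell in DU145 was 3 in place of 6 without DU145 sensitive replicate 1. The number that rose in PC3 was 5 in place of 8 without PC3 sensitive replicate 1 and also 5 without PC3 resistant replicate 2. Across the fits that each left out 1 library, 9 of the 18 DU145 calls and 11 of the 17 PC3 calls were made every time.

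The 5 members that rose in both lines were CXCL1, CXCL5, CXCL8, CCL2 and IL1A, a class that held 2.62% of all genes tested. The 3 that fell in both were ICAM1, CCL5 and IL18, against 2.78% of all genes. NFKB2, RELB and CSF2 rose in DU145 and fell in PC3, against 2.88%. Of the members in these classes, only CXCL5, ICAM1, NFKB2 and RELB kept their calls in both lines whichever library was left out. Another 12 members passed the test in neither line, among them RELA and REL, against 49.0% of all genes.

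**Figure D3:**
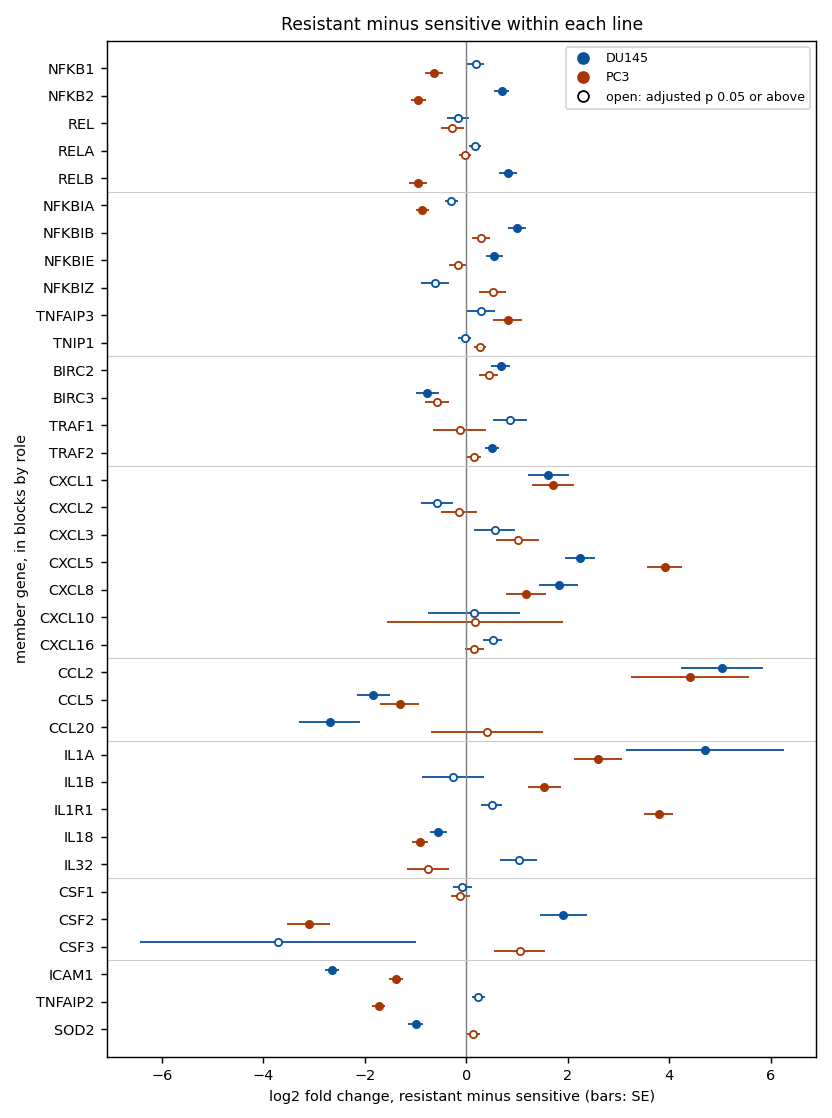
Log2 fold change, resistant minus sensitive (x axis), with its SE (bars) for the 36 tested members (y axis, in blocks by role) in DU145 (blue) and PC3 (brown), each from 2 libraries against 2. Filled points passed an adjusted p of 0.05. NFKB2, RELB and CSF2 lie on opposite sides of 0 in the lines, and CXCL1, CXCL5, CXCL8 and CCL2 lie to the right in both. The points of IL1A and CSF3 in DU145 rest on a group at 0 counts and depend on the fit's prior count.

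Among the subunits, the genes of the noncanonical arm moved in opposite directions in the lines and RELA passed the test in neither. These genes, NFKB2 and RELB, are given by library because of this, a choice made after their values were seen. In the order replicate 1 and replicate 2, which is used throughout, NFKB2 was at 120 and 147 CPM in DU145 sensitive, 193 and 239 CPM in DU145 resistant, 66.5 and 58.6 CPM in PC3 sensitive and 33.6 and 35.9 CPM in PC3 resistant libraries. The groups did not overlap in either line, with a log2 fold change of 0.70 ± 0.15 (SE, n = 2 per group, adjusted p = 0.00524) in DU145 and -0.95 ± 0.15 (adjusted p = 0.000736) in PC3. The PC3 change minus the DU145 change was -1.65 ± 0.21 (adjusted p = 0.000197).

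RELB, the partner of the NFKB2 product, was at 19.3 and 22.3 CPM in DU145 sensitive, 37.6 and 35.5 CPM in DU145 resistant, 9.47 and 9.06 CPM in PC3 sensitive and 4.79 and 5.50 CPM in PC3 resistant libraries. Its log2 fold change was 0.82 ± 0.17 (adjusted p = 0.00539) in DU145 and -0.95 ± 0.18 (adjusted p = 0.00248) in PC3, and the changes differed by -1.78 ± 0.25 (adjusted p = 0.000421). The calls of NFKB2 and RELB were made in every fit with 1 library left out.

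RELA, the main activating subunit of the canonical arm, was at 118 and 125 CPM in DU145 sensitive, 131 and 143 CPM in DU145 resistant, 93.6 and 92.0 CPM in PC3 sensitive and 100.2 and 95.9 CPM in PC3 resistant libraries. Its log2 fold change was 0.18 ± 0.12 (adjusted p = 0.298) in DU145 and -0.02 ± 0.12 (adjusted p = 0.917) in PC3. NFKB1, which encodes p105 and p50, was at 97.7 and 75.0 CPM in DU145 sensitive, 103 and 91.3 CPM in DU145 resistant, 50.2 and 48.5 CPM in PC3 sensitive and 37.8 and 30.3 CPM in PC3 resistant libraries. The DU145 groups overlapped, while in PC3 NFKB1 fell by 0.64 ± 0.18 on the log2 scale (adjusted p = 0.0172). That call was lost without PC3 sensitive replicate 1 (adjusted p = 0.0969), PC3 sensitive replicate 2 (0.0588) or PC3 resistant replicate 2 (0.133). REL had 29.2 to 41.8 CPM in DU145 and 6.61 to 9.87 CPM in PC3, with overlapping groups in both lines. Per kilobase of merged exons, the mean level of NFKB2 was 23.8 RPKM in DU145 sensitive cells, near the 22.3 RPKM of RELA, and 38.6 against 25.1 RPKM in DU145 resistant cells. In PC3 NFKB2 lay below RELA in both variants, with 11.2 against 17.0 RPKM in sensitive and 6.22 against 18.0 RPKM in resistant cells.

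The inhibitors did not move as a block. NFKBIA, which encodes the inhibitor that responds fastest to NF-kB, was at 284 and 304 CPM in DU145 sensitive, 229 and 246 CPM in DU145 resistant, 54.4 and 63.0 CPM in PC3 sensitive and 33.2 and 35.5 CPM in PC3 resistant libraries. It was lower in both resistant libraries of each line. The change passed the test in PC3 (-0.87 ± 0.13, adjusted p = 0.000544) and not in DU145 (-0.30 ± 0.13, adjusted p = 0.104).

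TNFAIP3, which encodes the ubiquitin-editing enzyme A20, was at 18.6 and 22.1 CPM in DU145 sensitive, 22.8 and 26.7 CPM in DU145 resistant, 5.01 and 10.5 CPM in PC3 sensitive and 15.1 and 13.9 CPM in PC3 resistant libraries. It rose in PC3 by 0.81 ± 0.28 on the log2 scale (adjusted p = 0.0438), and in DU145 the value was 0.29 ± 0.27 (adjusted p = 0.477). The 2 PC3 sensitive libraries differed from each other by over 2-fold. Without PC3 sensitive replicate 1 the PC3 value was 0.38 (adjusted p = 0.310), and without PC3 resistant replicates 1 or 2 the adjusted p was 0.134 and 0.0947. TNFAIP3 and NFKBIA, both feedback targets of the pathway, thus moved in opposite directions in PC3.

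The other inhibitors were NFKBIB and NFKBIE, which hold dimers in the cytoplasm, NFKBIZ, a nuclear cofactor, and TNIP1, an A20 partner. NFKBIB rose in DU145 from a mean of 28.1 to 55.8 CPM (log2 fold change 1.00 ± 0.17, adjusted p = 0.00164), and NFKBIE rose from 31.6 to 46.2 CPM (0.55 ± 0.17, adjusted p = 0.0349). The NFKBIE call was lost in 5 of the 8 fits that left out 1 library, with the highest adjusted p of 0.173 without DU145 resistant replicate 2. Neither passed in PC3. NFKBIZ was at 14.0, 13.3, 9.35 and 8.38 CPM over the DU145 libraries and 41.7, 43.5, 43.6 and 87.1 CPM over the PC3 libraries, and passed in neither line. TNIP1 was at 80.9 to 135 CPM in all libraries and passed in neither line.

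Of the adaptors, BIRC2 and BIRC3 encode the ubiquitin ligases cIAP1 and cIAP2, and TRAF1 and TRAF2 encode their binding partners. BIRC2 and TRAF2 rose in DU145 (0.68 ± 0.19, adjusted p = 0.0232, and 0.50 ± 0.14, adjusted p = 0.0208), while BIRC3 fell from a mean of 321 to 186 CPM (-0.77 ± 0.23, adjusted p = 0.0303). Each of these 3 calls failed when DU145 sensitive replicate 1 was left out (adjusted p 0.0969 for BIRC2, 0.0568 for TRAF2 and 0.0507 for BIRC3) and when replicate 2 was (0.0848, 0.132 and 0.149). BIRC2 (0.195) and TRAF2 (0.142) also lost theirs without DU145 resistant replicate 1, and BIRC3 (0.136) without DU145 resistant replicate 2. None of the 4 genes passed in PC3. TRAF1 was at 11.2 to 36.9 CPM in DU145 and 0.376 to 0.757 CPM in PC3.

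The chemokines moved gene by gene, some up and some down. CXCL1, CXCL2, CXCL3, CXCL5 and CXCL8 encode ligands of CXCR2 that attract neutrophils. CXCL5 was at 12.4 and 7.16 CPM in DU145 sensitive, 46.7 and 45 CPM in DU145 resistant, 1.51 and 0.821 CPM in PC3 sensitive and 17.0 and 20.8 CPM in PC3 resistant libraries. Both lines showed a clear gap between the groups, with a log2 fold change of 2.24 ± 0.29 (adjusted p = 0.000342) in DU145 and 3.91 ± 0.34 (adjusted p = 1.53e-05) in PC3. The rise was larger in PC3 by 1.67 ± 0.44 (adjusted p = 0.0138), which became 1.29 (adjusted p = 0.0639) without PC3 sensitive replicate 2.

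CXCL8, which encodes interleukin 8, was at 23.4 and 30.0 CPM in DU145 sensitive, 62.5 and 127 CPM in DU145 resistant, 7.65 and 11.4 CPM in PC3 sensitive and 13.6 and 32.3 CPM in PC3 resistant libraries. The rise was 1.82 ± 0.39 (adjusted p = 0.00602) in DU145 and 1.17 ± 0.40 (adjusted p = 0.0402) in PC3. The replicates of each resistant group differed by over 2-fold. The PC3 value was 0.41 (adjusted p = 0.436) without PC3 resistant replicate 2, and the call was also lost without PC3 sensitive replicate 1 (0.199) or 2 (0.0565).

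CXCL1 was at 6.46 and 3.51 CPM in DU145 sensitive, 20.6 and 9.51 CPM in DU145 resistant, 4.31 and 5.52 CPM in PC3 sensitive and 14.5 and 19.97 CPM in PC3 resistant libraries. It rose by 1.62 ± 0.41 (adjusted p = 0.0134) in DU145 and 1.71 ± 0.41 (adjusted p = 0.00805) in PC3. In DU145 the call was lost without resistant replicate 1 (0.87, adjusted p = 0.132) or sensitive replicate 2 (1.23, adjusted p = 0.0987), and in PC3 without sensitive replicate 1 (1.56, adjusted p = 0.0572) or resistant replicate 2 (1.45, adjusted p = 0.0508).

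The paralogs of CXCL1 did not pass in either line. CXCL2 was at 20.1 and 13.7 CPM in DU145 sensitive, 14.1 and 8.35 CPM in DU145 resistant, 1.68 and 2.65 CPM in PC3 sensitive and 2.07 and 2.10 CPM in PC3 resistant libraries, with overlapping groups in both lines. CXCL3 was at 3.79 and 2.19 CPM in DU145 sensitive, 5.11 and 3.6 CPM in DU145 resistant, 1.39 and 2.59 CPM in PC3 sensitive and 3.23 and 5.32 CPM in PC3 resistant libraries, with a log2 fold change of 1.01 ± 0.42 in PC3 (adjusted p = 0.0839). The values of these 3 genes are uncertain, since 4.57% of the 50-base stretches of CXCL1, 13.4% of those of CXCL2 and 6.01% of those of CXCL3 also occur in another gene, mostly one of the 3, and no source used here states how such reads were counted. Their promoter windows, shown above, all held the same 11 capital letters.

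The remaining CXC genes did not pass. CXCL10, an interferon-induced T cell attractant, had 1 to 19 counts per library, and CXCL16, made as a membrane-bound ligand, had 12.4 to 39.3 CPM. In DU145 CXCL16 was higher in both resistant libraries, with 0.51 ± 0.18 and an adjusted p of 0.0530.

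The CC chemokines each went their own way. CCL2, the monocyte attractant, had 3 and 1 counts in DU145 sensitive, 99 and 33 counts in DU145 resistant, 0 and 1 counts in PC3 sensitive and 17 and 17 counts in PC3 resistant libraries, so that it reached at most 2.89 CPM. It rose by 5.03 ± 0.81 on the log2 scale in DU145 (adjusted p = 0.00117), and PC3 showed a rise too (4.41 ± 1.16, adjusted p = 0.0128). The ratio of pooled CPM in PC3, 34 counts against 1, was 27.6 with a 95% exact interval of 4.63 to 1121, which covers counting error only. Without PC3 sensitive replicate 1 the PC3 call was lost (adjusted p = 0.0868). In DU145 the value ran from 3.93 without resistant replicate 1 to 5.97 without sensitive replicate 1.

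CCL5, a T cell attractant, fell in both lines. It was at 3.70 and 3.05 CPM in DU145 sensitive, 0.906 and 0.979 CPM in DU145 resistant, 0.753 and 0.852 CPM in PC3 sensitive and 0.348 and 0.337 CPM in PC3 resistant libraries. The log2 fold change was -1.83 ± 0.33 (adjusted p = 0.00217) in DU145 and -1.32 ± 0.38 (adjusted p = 0.0204) in PC3. The PC3 call was lost without any 1 of the 4 PC3 libraries (adjusted p 0.0684 to 0.0974), and 15.6% of the 50-base stretches of CCL5 also occur in other genes.

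CCL20, the ligand of CCR6, was at 19.7 and 8.14 CPM in DU145 sensitive and 3.39 and 0.835 CPM in DU145 resistant libraries, and at 0.116 to 0.256 CPM in PC3. It fell in DU145 (-2.69 ± 0.60, adjusted p = 0.00712). The replicates differed by 2.42-fold in the sensitive and 4.06-fold in the resistant group. The value was -1.86 (adjusted p = 0.0599) without DU145 sensitive replicate 1, -4.12 without resistant replicate 1 and -1.96 without resistant replicate 2, the last 2 still past the threshold.

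**Figure D4:**
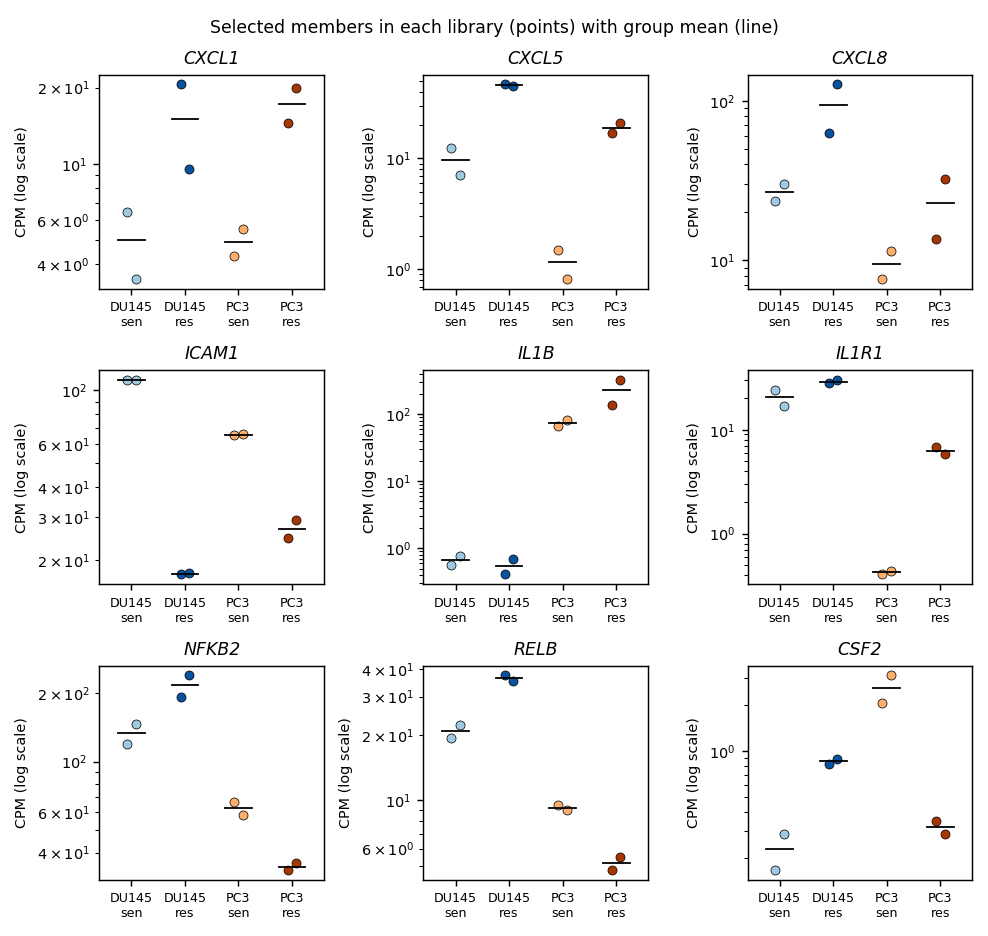
CPM on log axes (y) of 9 members in each library of the 4 groups (x; sen, sensitive; res, resistant), with points for the libraries and a line at the mean. CXCL1, CXCL5 and CXCL8 were higher in the resistant libraries of both lines and ICAM1 was lower. IL1B and IL1R1 rose in PC3, and NFKB2, RELB and CSF2 moved in opposite directions.

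Chemokines and pathway regulators were set side by side. Of the 10 chemokines, 4 rose and 2 fell in DU145, and 4 rose and 1 fell in PC3, and the median change was 0.54 (log2) in DU145 and 0.71 in PC3. Of the 15 regulators (subunits, inhibitors and adaptors), 6 rose and 1 fell in DU145, while 1 rose and 4 fell in PC3, with a median of 0.29 in DU145 and -0.13 in PC3. The median size of change, whatever its direction, was 1.72 and 1.09 for the chemokines and 0.55 and 0.44 for the regulators, against 0.48 and 0.54 over all genes tested in DU145 and PC3. Over all genes, 12.4% rose and 15.4% fell in DU145 and 18.6% rose and 17.0% fell in PC3, so that the 2 and 1 chemokines that fell are near that background. These are counts and medians with no test, since members of 1 pathway are not replicates. Some chemokines had few counts, such as CXCL10 (1 to 19 per library) and CCL20 in PC3 (at most 0.256 CPM). The lowest regulator was TRAF1 in PC3 (0.376 to 0.757 CPM). The part of low counts in the size of change was not tested. Calls lost in at least 1 fit with 1 library left out were CXCL1, CCL20, NFKBIE, BIRC2, BIRC3 and TRAF2 in DU145. In PC3 they were CXCL1, CXCL8, CCL2, CCL5, NFKB1 and TNFAIP3.

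Among the interleukin 1 genes, IL1B was marked in PC3, while IL1A, IL1B and IL1RN were nearly silent in DU145. IL1B was at 0.557 and 0.776 CPM in DU145 sensitive, 0.409 and 0.691 CPM in DU145 resistant, 66.4 and 82.8 CPM in PC3 sensitive and 135 and 326 CPM in PC3 resistant libraries. It rose in PC3 by 1.53 ± 0.32 (adjusted p = 0.00415), although the 2 resistant libraries differed by 2.41-fold. Without PC3 resistant replicate 2, the library with the higher leukocyte and endothelial marker sums (8.92 and 25.4 CPM), the rise was 0.76 (adjusted p = 0.0255). The part of those sums in the result was not tested.

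IL1A, which encodes the other agonist, had 0 and 0 counts in DU145 sensitive, 3 and 3 counts in DU145 resistant, 8 and 16 counts in PC3 sensitive and 88 and 104 counts in PC3 resistant libraries. In PC3 this was 0.232 and 0.505 against 2.04 and 2.70 CPM, a rise of 2.59 ± 0.48 (adjusted p = 0.00248), which became 3.22 without PC3 sensitive replicate 2. In DU145 the resistant level was 2.05-fold that of 3 counts over the sensitive group, taken as the limit that 0 counts allow. The counting error of the resistant group is left out of that value. The DU145 call (adjusted p = 0.0491) rests on 6 counts and was lost in 6 of 8 fits with 1 library left out, with adjusted p from 0.0673 to 0.153.

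IL1R1, the signalling receptor for both agonists, was at 24.1 and 17.1 CPM in DU145 sensitive, 27.9 and 30.2 CPM in DU145 resistant, 0.405 and 0.442 CPM in PC3 sensitive and 6.81 and 5.81 CPM in PC3 resistant libraries. It rose in PC3 by 3.79 ± 0.29 (adjusted p = 4.91e-06) and in DU145 the value was 0.50 ± 0.21 (adjusted p = 0.102). The difference between the lines was 3.29 ± 0.36 (adjusted p = 7.56e-05). The receptor was thus the higher in DU145 and the agonists were the higher in PC3. IL1RN, the secreted antagonist, had 6 and 8 counts in DU145 sensitive, 0 and 0 in DU145 resistant, 0 and 0 in PC3 sensitive and 2 and 14 in PC3 resistant libraries, too few for the test. With the same 3 count limit, its level was 4.55-fold lower in DU145 resistant and 4.33-fold higher in PC3 resistant cells. The counting error of the group with counts is left out of these values too. The PC3 value rests on replicate 2, since the 2 counts of replicate 1 (0.0465 CPM) are about at the limit of 0.0453 CPM and leave no bound.

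IL18, an interleukin 1 family cytokine, fell in both lines, from a mean of 36.4 to 24.6 CPM in DU145 (-0.55 ± 0.17, adjusted p = 0.0294) and from 61.5 to 34.9 CPM in PC3 (-0.92 ± 0.16, adjusted p = 0.00166). The DU145 call was lost in 5 of 8 fits with 1 library left out, with adjusted p up to 0.187 without DU145 resistant replicate 2. IL32, a cytokine found in humans and not in rodents, was at 24.4 and 22.4 CPM in DU145 sensitive, 61.1 and 33.0 CPM in DU145 resistant and 1.37 to 4.39 CPM in PC3 libraries, and passed in neither line. TNF, the best known inducer of the pathway, had 9 and 8 counts in DU145 sensitive, 1 and 4 counts in DU145 resistant, 1 and 2 counts in PC3 sensitive and 4 and 2 counts in PC3 resistant libraries, and was too low to be tested.

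The colony stimulating factors include the sharpest contrast between the lines. CSF2, which encodes GM-CSF, was at 0.167 and 0.288 CPM in DU145 sensitive, 0.818 and 0.893 CPM in DU145 resistant, 2.06 and 3.12 CPM in PC3 sensitive and 0.348 and 0.285 CPM in PC3 resistant libraries. It rose in DU145 (1.91 ± 0.47, adjusted p = 0.0116) and fell in PC3 (-3.11 ± 0.42, adjusted p = 0.000300), with a difference of -5.02 ± 0.63 (adjusted p = 0.000181). Leaving out DU145 sensitive replicate 1 ended the DU145 call (adjusted p = 0.0731). CSF1, the macrophage growth factor, was at 59.7 to 74.3 CPM in DU145 and 9.69 to 13.1 CPM in PC3 with overlapping groups. CSF3, which encodes G-CSF, had 3 counts in all in DU145 and 2.52 to 13.0 CPM in PC3, where it passed neither way (1.05 ± 0.50, adjusted p = 0.133).

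Among the adhesion molecules and enzymes, ICAM1 gave the smallest adjusted p of all members in DU145. ICAM1, the ligand of leukocyte integrins and a classical NF-kB target, was at 111 and 110 CPM in DU145 sensitive, 17.4 and 17.6 CPM in DU145 resistant, 65.7 and 65.8 CPM in PC3 sensitive and 24.6 and 29.1 CPM in PC3 resistant libraries. The replicates were close and the groups far apart in both lines. It fell by 2.65 ± 0.14 (adjusted p = 1.14e-06) in DU145 and by 1.39 ± 0.14 (adjusted p = 3.58e-05) in PC3, and the fall was larger in DU145 by 1.26 ± 0.19 (adjusted p = 0.000715). An antisense gene shares exonic bases with ICAM1, and no source used here states whether counting used the strand. The summed epithelial markers, mostly KRT8 and KRT18 in DU145, were also lower in DU145 resistant libraries and not in PC3 resistant libraries (values above). EPCAM differed little between the DU145 variants. The part of these markers in the result was not tested.

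TNFAIP2, a TNF-induced gene of vesicle and membrane traffic, was at 332 and 312 CPM in DU145 sensitive, 370 and 384 CPM in DU145 resistant, 70.2 and 74.9 CPM in PC3 sensitive and 24.4 and 22.5 CPM in PC3 resistant libraries. It fell in PC3 (-1.73 ± 0.13, adjusted p = 4.96e-06) and gave 0.23 ± 0.13 (adjusted p = 0.195) in DU145. SOD2, the mitochondrial superoxide dismutase, fell in DU145 from a mean of 480 to 238 CPM (-0.998 ± 0.15, adjusted p = 0.000635) and was at 118 to 156 CPM in PC3. The SOD2 identifier in the count files is not in GENCODE 44, and the model placed there by symbol overlaps SOD2-OT1, WTAP and ACAT2, so its counts are uncertain. VCAM1 had 1 count in all 8 libraries together, and PTGS2, the inducible cyclooxygenase, had 1 to 11 counts per library.

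Whether the resistant minus sensitive change differed between the lines was tested in the same fit, as the PC3 change minus the DU145 change. Of the 36 members 5 had a higher and 9 a lower value in PC3, against 18.5% and 15.9% of all genes tested. Among the 9, 6 were regulators (NFKB1, NFKB2, RELB, NFKBIA, NFKBIB and NFKBIE), and the others were TNFAIP2, IL32 and CSF2. The 5 were NFKBIZ, ICAM1, CXCL5, IL1R1 and SOD2. TNFAIP2 differed by -1.96 ± 0.18 (adjusted p = 2.41e-05) and SOD2 by 1.13 ± 0.20 (adjusted p = 0.00190). The differences of NFKB2, RELB, TNFAIP2, ICAM1, IL1R1, CSF2 and SOD2 were called in each fit with 1 library left out. The other 7 were not, and the number of members with a lower value was 4 to 7 over those fits in place of 9. The difference for NFKBIA (-0.57) was lost whichever library was left out, with adjusted p from 0.0512 to 0.163.

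The agreement of the 2 libraries of a group was examined for genes that averaged 1 CPM or more in it. The median ratio of the higher to the lower library over the members was 1.18 in DU145 sensitive, 1.15 in DU145 resistant, 1.15 in PC3 sensitive and 1.20 in PC3 resistant cells, against 1.16, 1.17, 1.10 and 1.15 over all such genes. A ratio of at least 2 was found for 1 of 30 members in DU145 sensitive (CCL20), 4 of 30 in DU145 resistant (CCL2, CXCL8, CCL20 and CXCL1), 2 of 29 in PC3 sensitive (CSF3 and TNFAIP3) and 4 of 30 in PC3 resistant cells (IL32, CSF3, IL1B and CXCL8). Over all genes the share with such a ratio was 2.84%, 4.45%, 1.5% and 2.54%. All but TNFAIP3 of these members encode secreted chemokines, cytokines or growth factors. Such genes are also a large part of the 40 members, which include 10 chemokines, 3 colony stimulating factors and several interleukins. The ratios were not compared at matched levels. NFKBIZ in PC3 resistant cells lay just under the limit, with a ratio of 1.996.

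The lines themselves differed in most members. In sensitive cells 26 of 36 tested members were lower in PC3 than in DU145 and 6 were higher, against 29.2% and 28.6% of all genes. In resistant cells the counts were again 26 lower and 6 higher, against 26.3% and 30.4%. The median log2 difference (PC3 minus DU145) was -1.16 in sensitive and -1.48 in resistant cells. No source used here states how the libraries were spread over sequencing runs, so a difference between lines and one between runs cannot be told apart.

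All 5 subunits were lower in PC3 in both variants. The gap for RELB was -1.10 ± 0.18 in sensitive and -2.87 ± 0.19 in resistant cells, and for NFKB2 -1.02 ± 0.15 and -2.67 ± 0.16, while for RELA it was -0.32 ± 0.12 and -0.52 ± 0.12. The RELA call in sensitive cells was lost without any 1 of the 8 libraries (adjusted p 0.0535 to 0.235), and that of NFKB1 without DU145 sensitive replicate 1 (0.0530). Among the adaptors TRAF1 (-4.75 ± 0.44 and -5.75 ± 0.45) and BIRC3 (-3.63 ± 0.26 and -3.44 ± 0.26) stood furthest below DU145. The members higher in PC3 in both variants were NFKBIZ, IL1A, IL1B, IL18 and CSF3, although the IL18 call in resistant cells was lost in 4 of 8 fits with 1 library left out (adjusted p up to 0.235). IL1B differed by 6.86 ± 0.46 in sensitive and 8.66 ± 0.49 in resistant cells (adjusted p = 5.77e-07 and 1.71e-07). The IL1B level in the DU145 libraries was only 1.56 to 2.48 times an upper limit for reads shared between libraries. That limit was set in each library by the gene lowest relative to its own mean, among genes averaging at least 100 CPM. Whether reads were shared was not measured. With the limit subtracted the differences were 7.88 and 9.58, so the size of the gap is uncertain. CSF3 in resistant cells was 220-fold higher in PC3 with the 0 counts in DU145 taken as 3 counts. ICAM1 was lower in PC3 among sensitive cells (-0.68 ± 0.14) and higher among resistant cells (0.57 ± 0.14), and CSF2 went the other way (3.56 ± 0.45 and -1.46 ± 0.44). The resistant CSF2 call was lost without PC3 resistant replicate 2 (adjusted p = 0.0795).

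**Figure D5:**
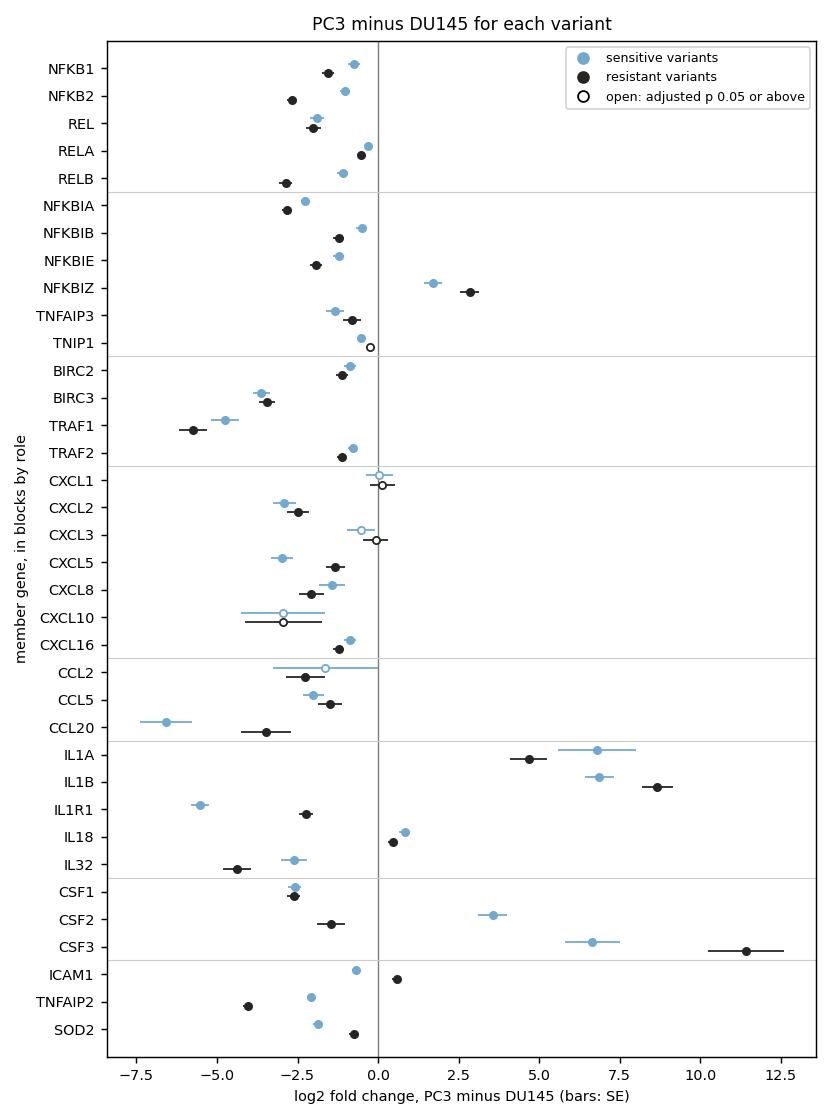
Log2 fold change, PC3 minus DU145 (x axis), with its SE (bars) for the 36 tested members (y axis) in sensitive (blue) and resistant (black) variants, each from 2 libraries against 2. Filled points passed an adjusted p of 0.05. All 5 subunits lie to the left of 0 and IL1A, IL1B, IL18, NFKBIZ and CSF3 to the right in both variants. The points of IL1A in sensitive and CSF3 in resistant cells rest on a group at 0 counts and depend on the prior count.

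The rest of the pathway was read from 6 lists with 128 genes, of which 110 were tested. In DU145, 28 rose and 16 fell, and in PC3, 21 rose and 22 fell, with median log2 fold changes of 0.22 and -0.08. As shares of the 110 this was 25.5% and 14.5% in DU145 and 19.1% and 20% in PC3, near the shares over all genes (12.4% and 15.4%, 18.6% and 17.0%) except for those that rose in DU145. The counts of the single lists below are to be read against the same shares. Unlike the members, the single genes of these lists were not examined with 1 library left out, so how far their calls hold is not known. Among 27 receptors and proximal adaptors, 8 rose and 2 fell in DU145 and 5 rose and 5 fell in PC3. TNFRSF11A, the receptor RANK, rose in DU145 from a mean of 2.39 to 19.4 CPM (3.03 ± 0.21, adjusted p = 5.12e-06). IL18R1, a chain of the interleukin 18 receptor, rose in both lines (1.43 ± 0.28, adjusted p = 0.00394, and 2.94 ± 0.30, adjusted p = 3.84e-05), where the ligand gene IL18 fell. IRAK2, a kinase-like adaptor of the interleukin 1 receptor, rose in DU145 (1.43 ± 0.24, adjusted p = 0.00167) and fell in PC3 (-0.83 ± 0.24, adjusted p = 0.0221).

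An opposite pattern of ligand and receptor was also seen for interleukin 33 in PC3. IL33 was at 48.6 and 61.7 CPM in PC3 sensitive and 0.186 and 1.61 CPM in PC3 resistant libraries, with a log2 fold change of -6.06 ± 0.65 (adjusted p = 0.000101). IL1RL1, its receptor, was at 0.579 and 1.96 CPM in PC3 sensitive and 48.2 and 72.9 CPM in PC3 resistant libraries, a rise of 5.49 ± 0.45 (adjusted p = 8.31e-06). In DU145 neither gene was above 0.519 CPM.

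Among 20 kinases and core activators, 6 rose and 5 fell in DU145, and 5 rose and 5 fell in PC3 (25.0% each way, against 18.6% and 17.0% of all genes). MAP3K14, which encodes NIK, was at 125 and 103 CPM in DU145 sensitive, 267 and 199 CPM in DU145 resistant, 79.8 and 58.1 CPM in PC3 sensitive and 66.7 and 36.2 CPM in PC3 resistant libraries. MAP3K14 rose in DU145, as NFKB2 and RELB did (1.04 ± 0.28, adjusted p = 0.0183). In PC3 it gave -0.53 ± 0.28 (adjusted p = 0.17), and the changes differed by -1.57 ± 0.40 (adjusted p = 0.0113). Unlike those of NFKB2 and RELB, its calls were not examined with 1 library left out. IKBKG, the scaffold of the IKK complex, rose in DU145 (0.64 ± 0.19, adjusted p = 0.0271) and fell in PC3 (-1.19 ± 0.19, adjusted p = 0.000765). IKBKE fell in DU145 (-1.69 ± 0.24, adjusted p = 0.000600), and MAP3K8 fell in both lines (-1.56 ± 0.26 and -1.22 ± 0.26, adjusted p = 0.00137 and 0.00456).

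Of 15 further inhibitors 2 fell in DU145 and the rest did not pass, and 1 rose and 4 fell in PC3. SOCS3, a suppressor of cytokine signalling, fell in both (-1.71 ± 0.27, adjusted p = 0.000939, and -0.89 ± 0.26, adjusted p = 0.0210), as did BCL3, an atypical nuclear inhibitor family member (-0.70 ± 0.20, adjusted p = 0.0241, and -0.61 ± 0.21, adjusted p = 0.0409). In PC3 TOLLIP fell (-1.21 ± 0.18, adjusted p = 0.000456) and OTULIN rose (0.78 ± 0.18, adjusted p = 0.00602).

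Of 28 further chemokines and cytokines, 19 were tested, of which 6 rose in DU145 and the rest did not pass, while 2 rose and 4 fell in PC3. IL12A and IL15 rose in DU145 (2.18 ± 0.31, adjusted p = 0.000530, and 1.68 ± 0.29, adjusted p = 0.00186) and fell in PC3 (-1.11 ± 0.31, adjusted p = 0.0184, and -1.99 ± 0.29, adjusted p = 0.000461). IL11 rose in DU145 (2.65 ± 0.37, adjusted p = 0.000516). Of 14 receptors for chemokines and cytokines 5 were tested, and none passed in DU145. In PC3, 2 rose (CXCR4 and ACKR3) and 1 fell, with a median log2 fold change of 1.37 over the tested genes. The gene that fell was IL6R (-0.84 ± 0.20, adjusted p = 0.00752).

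Of 24 further NF-kB targets, 8 rose and 7 fell in DU145, and 6 rose and 3 fell in PC3 (25.0% and 12.5%, against 18.6% and 17.0% of all genes). In DU145 CD44, a hyaluronan receptor, rose from 180 to 698 CPM (1.96 ± 0.18, adjusted p = 3.11e-05) and PTX3, a soluble pattern recognition protein, from 1.02 to 21.5 CPM (4.42 ± 0.29, adjusted p = 3.75e-06). Complement C3 fell in DU145 from 38.8 to 1.88 CPM (-4.36 ± 0.65, adjusted p = 0.000725), with sensitive libraries at 62.2 and 15.3 CPM. MMP9, a matrix protease, rose in PC3 from 0.543 to 11.3 CPM (4.29 ± 0.54, adjusted p = 0.000175).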

How the data were processed

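RNA of 8 libraries was measured, 2 per group. The deposited values were whole-number counts per gene, made by the authors from SMART-seq libraries of total RNA aligned with Bowtie to hg38, per the labels. No source used here gives the Bowtie version, the counter, its annotation or its treatment of strand and multi-mapped reads. Counts of 60554 genes were tested with edgeR 4.0.16 in R 4.3.3 (quasi-likelihood test, TMM scaling, edgeR's low count filter, 4 group means, 4 residual degrees of freedom, biological coefficient of variation 17.1%). P-values were adjusted by the Benjamini-Hochberg method over 20238 genes, and SEs are the log2 fold change over the square root of F. Mitochondrial genes took 0.501 to 2.07% of counts. Replicates of every group differed beyond sampling noise (chi-square per degree of freedom 18.4 to 47.9), so none was counted as a duplicate.

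RPKM used merged exon lengths of GENCODE 44, and promoters came from RefSeq. A planned comparison of chemokine proteins was not run, since no protein sequences were used here. Intervals and limits from 3 counts cover counting error only. On simulated data of the DU145 comparison, 45.1% of genes changed by 2-fold and 76.9% of those changed by 4-fold were recovered. There were 3 draws of 200 changed genes each (19363 to 19375 genes tested). Of the calls 8.51% were false, with an adjusted p threshold of 0.05. The measured DU145 comparison had far more calls, with 2513 genes that rose and 3120 that fell. The recovery with that many changed genes was not tested, nor was the share of false calls.

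Members and lists were chosen with earlier results of these data known. Values by library are given for NFKB1, RELA, NFKBIA, TNFAIP3, ICAM1, CXCL8, TNF, CXCL1, CXCL2 and CXCL3, and for members past the threshold with a log2 change of at least 1 and a mean of at least 1 CPM. From each further list up to 4 genes with the largest change past the threshold and at least 5 CPM were taken. Further genes named beside these were chosen after their values were seen. Alternatives were RLE scaling, DESeq2 1.42.0, other filters, a replicate block, 1 line alone, each library left out, and subtraction of an upper limit for reads shared between libraries.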

Additional observations from a re-analysis of the deposited data

Results flagged for a closer look

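The change from sensitive to resistant cells differed between PC3 and DU145, by the interaction test in edgeR, for 14 members. Of the 36 tested members 13.9% had a higher and 25.0% a lower change in PC3, against 18.5% and 15.9% of all genes tested. The calls of NFKB1, NFKBIA, NFKBIB, NFKBIE, NFKBIZ, CXCL5 and IL32 did not hold in every fit with 1 library left out. On the log2 scale, PC3 minus DU145, the difference was -0.82 for NFKB1, -1.65 for NFKB2, -1.78 for RELB, -0.57 for NFKBIA, -0.71 for NFKBIB and -0.71 for NFKBIE. It was -1.96 for TNFAIP2, -1.78 for IL32 and -5.02 for CSF2. It was 1.13 for NFKBIZ, 1.26 for ICAM1, 1.67 for CXCL5, 3.29 for IL1R1 and 1.13 for SOD2. Each line has 1 resistant strain, so a difference between lines and one between strains cannot be told apart.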

How the results depend on the processing

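With no low count filter, 13 members rose in PC3 in place of 8, and 8 in place of 5 had a higher change in PC3 than in DU145. With 1 library left out, the genes that rose numbered 1380 to 2467 in DU145 and 2349 to 4020 in PC3, and those that fell in PC3 1983 to 3578. Members that fell in DU145 numbered 3 to 8, members that rose in PC3 5 to 9, and members with a lower change in PC3 4 to 7. The cause was not tested. All values that changed sign belonged to members that had not passed the test in that comparison. CXCL10 turned to -0.13 in DU145 with the replicate block, and its difference between lines to -0.00047 with RLE scaling and -0.025 with DESeq2. RELA in PC3 turned to 0.013 with no filter and 0.027 with at least 1 CPM in 4 libraries. With the latter filter the difference for CSF1 was 0.027 and CXCL1 between sensitive lines was -0.019.

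With 1 library left out, the DU145 log2 fold change ran from -0.019 to 0.43 for NFKB1, -0.33 to 0.054 for REL, -3.13 to 1.13 for CXCL10, -0.60 to 0.0020 for IL1B, -0.32 to 0.14 for CSF1 and -4.67 to 0 for CSF3. In PC3 it ran from -0.054 to 0.0085 for RELA, -0.072 to 0.94 for NFKBIZ, -0.55 to 0.42 for TRAF1, -0.43 to 0.19 for CXCL2, -0.28 to 0.47 for CXCL10, -0.044 to 0.34 for CXCL16, -0.16 to 0.79 for CCL20 and -0.34 to 0.13 for CSF1. The difference between lines ran from -0.42 to 0.14 for REL, -0.49 to 0.039 for BIRC2, -0.16 to 0.62 for BIRC3, -0.46 to 0.85 for CXCL1, -0.041 to 0.94 for CXCL3, -0.96 to 3.29 for CXCL10, -1.56 to 1.87 for CCL2 and -0.26 to 0.21 for CSF1. PC3 minus DU145 ran from -0.36 to 0.58 for CXCL1 in sensitive cells, and in resistant cells from -0.38 to 0.89 for CXCL1, -0.48 to 0.28 for CXCL3 and -3.91 to 0.34 for CXCL10.

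The replicate numbers were not shown to pair the libraries, since same-numbered deviations correlated at 0.323 in DU145 and 0.0861 in PC3. With the replicate block, 16 members rose and 9 fell in DU145, and 10 rose and 9 fell in PC3. The counts over all genes were higher too. With the block 3644 rose and 4112 fell in DU145, against 2513 and 3120 without it. In PC3 4685 rose and 4583 fell, against 3755 and 3441. Of 180 member fold changes, RLE scaling left 178 and DESeq2 174 with the same sign and the same side of the threshold, and subtraction of shared reads left 179.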
